A study of Homo sapiens with 6 samples.

Results

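The genes for the receptors EGFR, ERBB2, ERBB3, PDGFRA, PDGFRB and MET and for the ligands HBEGF, PDGFA, PDGFC and HGF were examined after knockdown of TAK1. They were taken by gene symbol, which gave 10 genes among the 58735 rows of the count table. The filter on low counts left 15935 genes to be tested, and all 10 passed it. RD is an established human cell line derived from an embryonal rhabdomyosarcoma, a soft tissue tumor with features of skeletal muscle. RD cells carried lentivirus with a scrambled shRNA (control, n = 3) or with a TAK1 shRNA (TAK1 knockdown, n = 3), and 1 TAK1 shRNA sequence was used. Poly(A)-enriched RNA was sequenced, and total counts per sample ran from 28839898 to 34469323. The labels number the samples without saying whether they came from separate cultures, so p-values measure the spread between these samples, which may be technical.

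TAK1, encoded by MAP3K7, is a kinase that carries signals from cytokine and TGF-beta receptors to the JNK, p38 and NF-kB pathways. EGFR, ERBB2 and ERBB3 belong to the ErbB family of receptors, which signal as dimers, and HB-EGF, the product of HBEGF, is released from the cell surface to bind EGFR. PDGFRA and PDGFRB bind dimers of the PDGF chains, MET binds HGF, and all 3 axes feed the RAS and phosphoinositide 3-kinase pathways, while MET and HGF also act in the migration of muscle precursors.

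The targeted transcript and the identity of the cells were checked first. MAP3K7 reached 77.9, 76.5 and 77.6 CPM (the count scaled by the normalized library size) in the control samples and 30.5, 33.6 and 29.9 CPM in the TAK1 knockdown samples, so every knockdown sample was below every control sample. The muscle markers DES (340.5 and 362.1 CPM in the control and knockdown means), MYOD1 (262.6 and 339.2 CPM) and MYOG (140.7 and 169.6 CPM) were abundant. MYOD1 rose by 0.37 and MYOG by 0.27 on the log2 scale, and the MYOG call was lost without control sample 1 (0.24) or knockdown sample 1 (0.24). The summed level of 9 epithelial markers was 0.593 CPM in control and 0.525 CPM in knockdown samples, with CDH1, KRT14 and KRT19 at 0 counts in all 6 samples.

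Of the 10 receptor and ligand genes, 3 had an adjusted p under 0.05 together with a log2 fold change of 0.25 or more in either direction, and all 3 (ERBB2, ERBB3 and PDGFC) rose. Over all genes tested, 23.1% passed, 11.8% upward and 11.3% downward. With scaling by library size alone 62.9% of all calls were upward, against 51.0% with the main normalization, and ERBB2, ERBB3 and PDGFC were called upward under each. The control and knockdown samples did not overlap for 6 of the 10 genes, compared with 43.9% of all genes tested. ERBB2, ERBB3, PDGFC, MET and HGF were higher in every knockdown sample, and HBEGF was lower. The median log2 fold change of the 10 genes was 0.18, and that of all genes tested was 0.018.

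**Figure D1:**
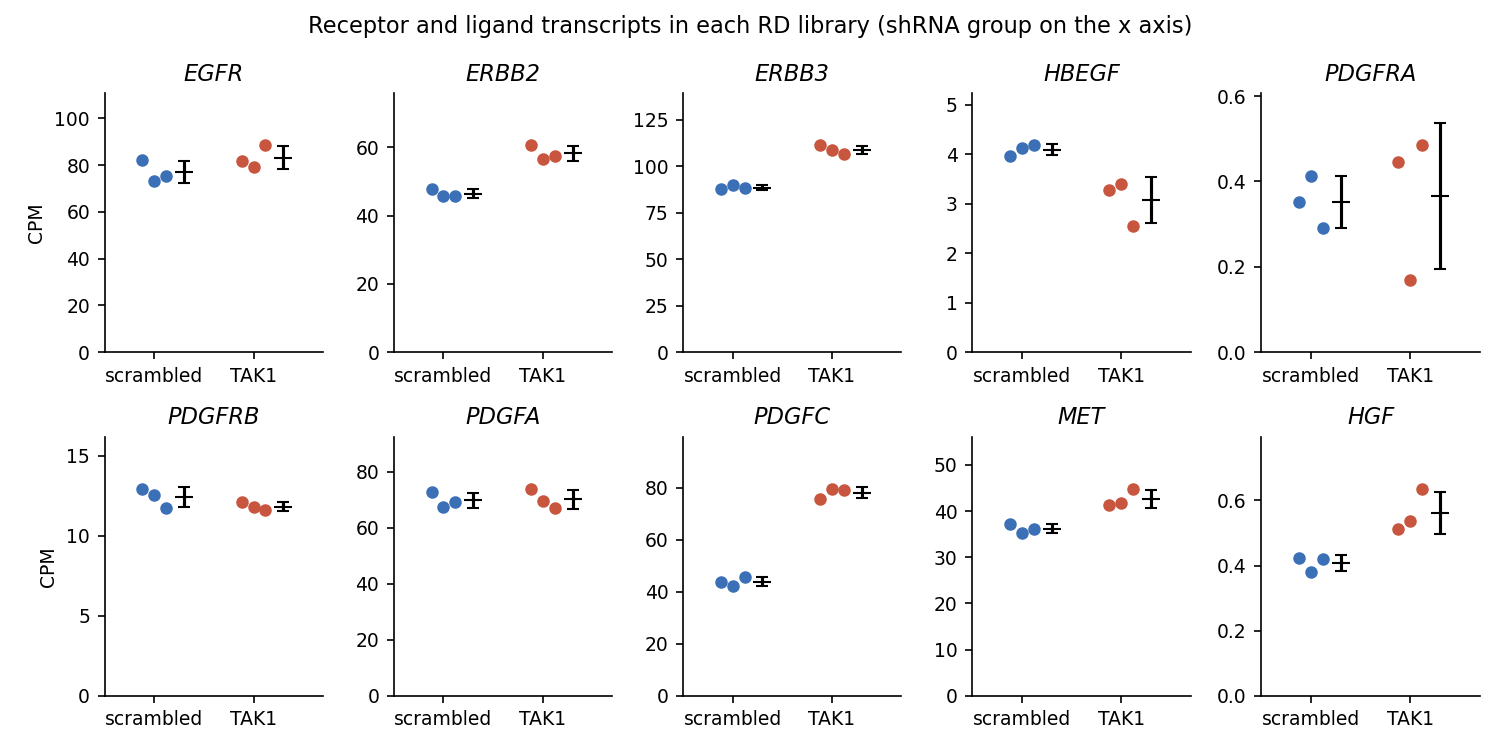
Level of each receptor and ligand transcript (y axis, CPM) in the control samples (blue, scrambled shRNA) and TAK1 knockdown samples (red), with 1 point per sample and the mean and SD in black (n = 3 per group). PDGFC rose from a mean of 43.8 to 78.0 CPM, while the points of EGFR, PDGFRA, PDGFRB and PDGFA overlap between the groups.

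Among the receptors, EGFR (ENSG00000146648.21, chr7:55019017-55211628, plus strand of GRCh38) reached 82.3, 73.4 and 75.2 CPM in the control samples and 82.0, 79.3 and 88.5 CPM in the knockdown samples. Control sample 1 lay within the knockdown range, and the groups overlapped. Exons of EGFR overlap those of EGFR-AS1 on the opposite strand. The means were 77.0 ± 4.68 and 83.3 ± 4.77 CPM (SD, n = 3 each), which differed by 0.11 on the log2 scale (standard error 0.058, 95% interval -0.0059 to 0.23). The adjusted p of 0.141, from the edgeR quasi-likelihood test after Benjamini-Hochberg correction, missed the threshold. Over 12 alternatives the log2 fold change ran from 0.057 to 0.16, below the fold threshold in each, with adjusted p from 0.0288 (scaling by library size alone) to 0.531. By qRT-PCR, the paper reports lower expression in TAK1 knockdown RD cells for a set of genes that included EGFR. The mean in these counts was higher instead, and the reason for this difference was not tested. In bulk RNA, a change in the share of cells with a transcript and a change in its level per cell cannot be told apart.

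ERBB2, the ErbB receptor with no known ligand of its own and a preferred dimer partner of the others, was upregulated. Its gene (ENSG00000141736.14, chr17:39687914-39730426, plus strand) gave 47.9, 45.7 and 45.7 CPM in the control samples and 60.6, 56.5 and 57.6 CPM in the knockdown samples. The lowest knockdown sample was well above the highest control sample. The means of 46.4 ± 1.27 and 58.3 ± 2.13 CPM (SD, n = 3 each) differed by 0.33 on the log2 scale (standard error 0.059, 95% interval 0.21 to 0.45, edgeR adjusted p = 0.000105), a 1.26-fold rise. Exons of ERBB2 overlap those of PGAP3 and MIEN1 on the opposite strand, and since strand use in counting is not given in the sources used here, some reads may be shared. PGAP3 (8.52 and 8.30 CPM) and MIEN1 (9.06 and 8.26 CPM) were not called.

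ERBB3, whose kinase domain has little activity and which signals through its partner, was also upregulated. The gene (ENSG00000065361.17, chr12:56076799-56103505, plus strand) reached 87.6, 89.8 and 88.1 CPM in the control samples and 111.2, 108.4 and 106.7 CPM in the knockdown samples. The replicates within each group lay close together and the groups stood apart. The log2 fold change was 0.30 (standard error 0.049, 95% interval 0.20 to 0.40, edgeR adjusted p = 3.48e-05), from 88.5 ± 1.14 to 108.8 ± 2.30 CPM (SD, n = 3 each). Exons of ERBB3 overlap those of another annotated gene, ENSG00000257411, on the same strand, so reads may be shared whether or not strand was used. ERBB4, the remaining receptor of the family, had 3 counts in control sample 3 and 0 in every other sample, where a count of 0 allows at most 0.0849 to 0.106 CPM by counting error alone.

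To order the receptors and ligands by level, CPM was divided by the merged exon length in kb. In the control samples ERBB3 had 7.56 ± 0.0977 CPM per kb, EGFR 4.83 ± 0.293 and ERBB2 4.50 ± 0.123 (SD, n = 3). The control samples of EGFR, at 4.61 to 5.16 CPM per kb, overlapped those of ERBB2, at 4.42 to 4.64, so this pair could not be ordered beyond its spread. In the knockdown samples ERBB2 had 5.64 ± 0.206 and EGFR 5.22 ± 0.299 CPM per kb (SD, n = 3), again with overlapping samples. With the length of the longest transcript in place of the merged exons, ERBB2 was above EGFR in both groups, so the order of these 2 receptors in the control samples depended on the length used.

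The summed level of the ErbB receptors was 17.3, 16.7 and 16.7 CPM per kb in the control samples and 20.5, 19.7 and 20.2 CPM per kb in the knockdown samples. It was higher in every knockdown sample, and the two-sided exact permutation test gave p = 0.1, which is the lowest value possible for groups of 3. The EGFR share of this sum was 29.9%, 27.6% and 28.3% in the control samples and 25.1%, 25.2% and 27.4% in the knockdown samples. Every knockdown share was below every control share, although knockdown sample 3 lay close to control sample 2. The mean level of EGFR itself was 4.83 CPM per kb in control and 5.22 in knockdown samples, so its lower share went with the larger sum. The mean share was 28.6 ± 1.17% in control and 25.9 ± 1.32% in knockdown samples (SD, n = 3 each), a difference of -2.68 percentage points (two-sided exact permutation p = 0.1). The ERBB2 share was 26.6 ± 0.189% and 28.0 ± 0.563% (SD, n = 3 each; two-sided exact permutation p = 0.1), and the ERBB3 share of 44.8 ± 1.35% and 46.1 ± 1.00% overlapped between the groups (two-sided exact permutation p = 0.3).

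**Figure D2:**
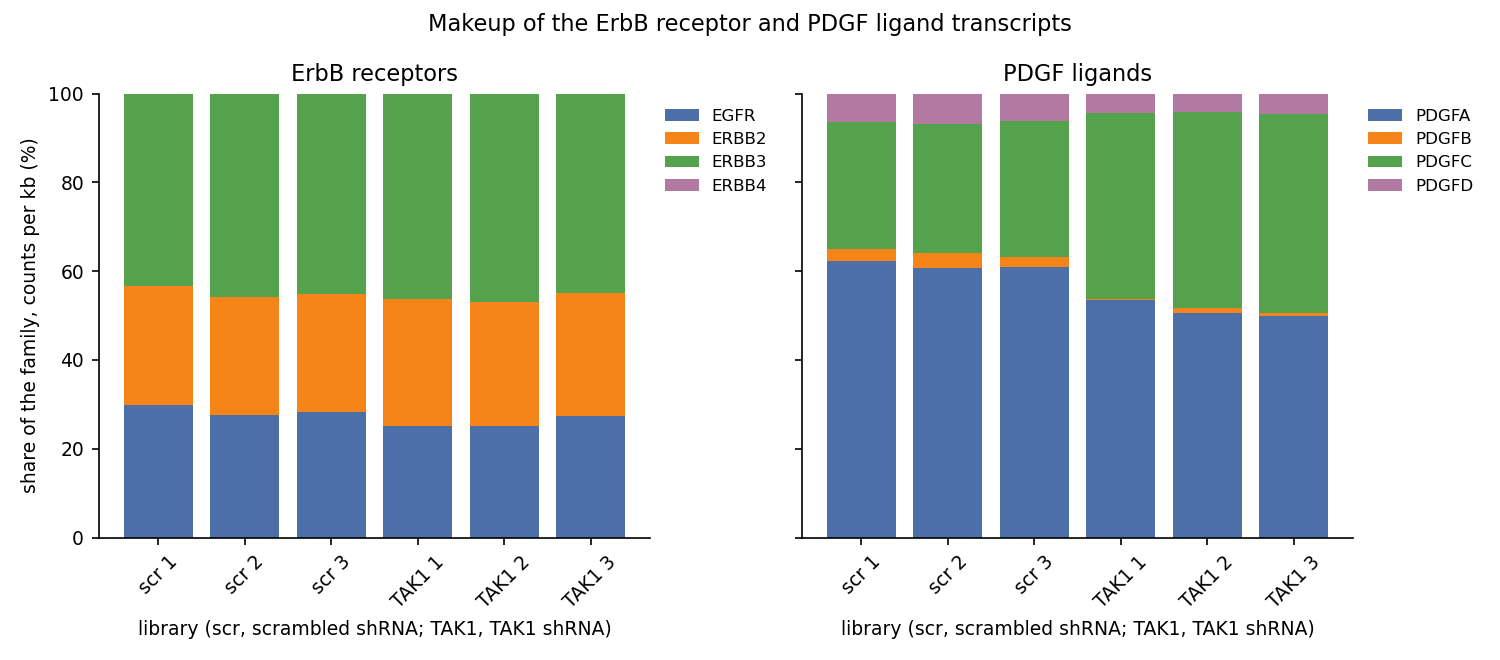
Share of each gene in the summed counts per kb of its family (y axis, percent) for the ErbB receptors (left) and the PDGF ligands (right), with 1 stacked bar per sample. The mean EGFR share was 28.6% in control and 25.9% in knockdown samples, and the mean PDGFC share was 29.4% and 43.6%.

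PDGFRA, the PDGF receptor that binds the A, B and C chains, was near the limit of detection, and its exons overlap those of ENSG00000282278 on the same strand. It had 10, 13 and 9 counts in the control samples and 13, 6 and 16 counts in the knockdown samples. Knockdown sample 2 was the lowest and knockdown sample 3 the highest, so the groups overlapped. Its log2 fold change of 0.039 had a 95% interval of -1.01 to 1.09 (edgeR adjusted p = 0.965), and its sign varied between -0.24 and 0.40 as single samples were left out. These counts do not settle whether a difference within that interval was present.

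PDGFRB, which binds the B and D chains, reached 12.9, 12.6 and 11.7 CPM in the control samples and 12.1, 11.8 and 11.6 CPM in the knockdown samples. The ranges overlapped, and the log2 fold change was -0.070 with a 95% interval of -0.27 to 0.13 (edgeR adjusted p = 0.624). Per length, PDGFRB stood far above PDGFRA, with 1.74 ± 0.0862 against 0.0369 ± 0.00633 CPM per kb in the control samples (SD, n = 3). PDGFRA made up 2.07 ± 0.293% of the PDGF receptor sum per length in control and 2.26 ± 1.04% in knockdown samples (SD, n = 3 each; two-sided exact permutation p = 0.9). Of the counts on the 2 receptors together, the PDGFRA percentage was lowest in knockdown sample 2 (1.42%, exact Clopper-Pearson 95% interval 0.524% to 3.07%, counting error only) and highest in knockdown sample 3 (4.01%, interval 2.31% to 6.43%), and these intervals overlapped.

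MET (ENSG00000105976.16, chr7:116672196-116798377, plus strand), the receptor of HGF, reached 37.2, 35.3 and 36.1 CPM in the control samples and 41.4, 41.7 and 44.8 CPM in the knockdown samples. All knockdown samples were above all control samples. The means were 36.2 ± 0.970 and 42.6 ± 1.91 CPM (SD, n = 3 each), and the log2 fold change of 0.24 (standard error 0.064, 95% interval 0.10 to 0.37) passed the adjusted p (0.00569 by edgeR) but lay just under the fold threshold. MET passed both thresholds with scaling by library size alone (0.29), without control sample 1 (0.26), without knockdown sample 1 (0.26) and without knockdown sample 2 (0.25), with log2 fold changes from 0.19 to 0.29 over 12 alternatives.

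**Figure D3:**
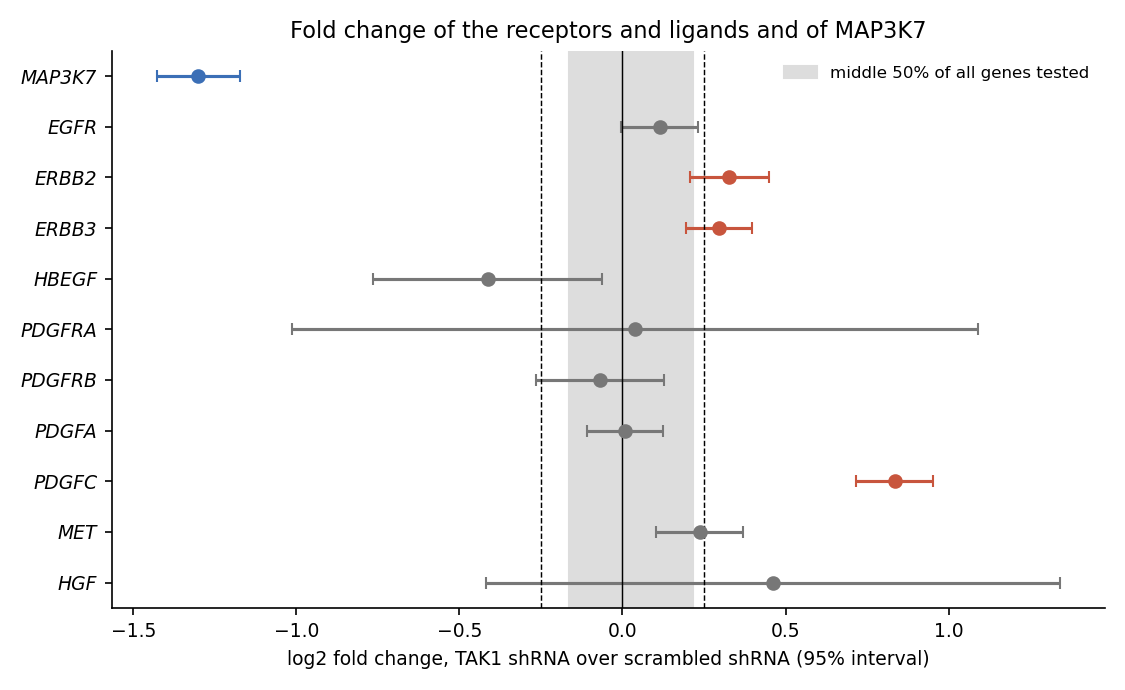
Log2 fold change of TAK1 knockdown over control (x axis) for MAP3K7 and the 10 receptor and ligand genes, with 95% intervals. Red and blue mark genes called higher and lower, gray genes were not called, dashed lines mark the fold threshold of 0.25 and the gray band holds the middle 50% of all genes tested (-0.16 to 0.22). The intervals of PDGFRA and HGF are wide, and PDGFC lies farthest from 0 among the called genes other than MAP3K7.

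Among the ligands, PDGFC had the largest change of the 3 called genes. This gene for a PDGF chain that is secreted in latent form (ENSG00000145431.11, chr4:156760454-156971799, minus strand) reached 43.7, 42.1 and 45.5 CPM in the control samples and 75.6, 79.6 and 78.9 CPM in the knockdown samples. No sample of either group came near the other group. The log2 fold change was 0.83 (standard error 0.057, 95% interval 0.72 to 0.95, edgeR adjusted p = 3.00e-11), a 1.78-fold rise from 43.8 ± 1.67 to 78.0 ± 2.14 CPM (SD, n = 3 each). It ran from 0.81 to 0.88 over 12 alternatives, and 5.05% of the genes tested had an absolute log2 fold change at least as large.

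PDGFA, the A chain (ENSG00000197461.13, chr7:497258-520296, minus strand), reached 72.8, 67.5 and 69.2 CPM in the control samples and 74.0, 69.5 and 67.2 CPM in the knockdown samples. The groups overlapped throughout. The log2 fold change was 0.0076 with a 95% interval of -0.11 to 0.12 (edgeR adjusted p = 0.937), and its sign varied between -0.030 and 0.056 over the alternatives. PDGFB, the B chain, fell from 2.81 ± 0.444 to 0.908 ± 0.395 CPM (SD, n = 3 each), a log2 fold change of -1.61 (standard error 0.28, edgeR adjusted p = 6.69e-05). It had 2.71, 3.30 and 2.43 CPM in the control samples and 0.513, 1.30 and 0.909 CPM in the knockdown samples, with every knockdown sample lower. PDGFD, the D chain, had 6.84 ± 0.345 and 5.65 ± 0.290 CPM (SD, n = 3 each) and was not called (log2 fold change -0.28, edgeR adjusted p = 0.0974).

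The makeup of the 4 PDGF ligands was computed after these values were seen and is given without a test. Per length, PDGFA was the most abundant in the control samples at 15.2 ± 0.593 CPM per kb, followed by PDGFC at 7.30 ± 0.278, PDGFD at 1.60 ± 0.0809 and PDGFB at 0.705 ± 0.111 (SD, n = 3). The PDGFC share of the sum was 28.6%, 29.0% and 30.6% in the control samples and 41.7%, 44.2% and 44.7% in the knockdown samples. The PDGFA share went from a mean of 61.3% to 51.2% while its own level per kb was 15.2 and 15.3. The PDGFB share went from a mean of 2.84% to 0.762%.

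HBEGF (ENSG00000113070.8, chr5:140332843-140346603, minus strand), the EGFR ligand, reached 3.97, 4.13 and 4.18 CPM in the control samples and 3.28, 3.40 and 2.54 CPM in the knockdown samples. Every knockdown sample was lower, and knockdown sample 3 was the lowest. The means were 4.10 ± 0.109 and 3.07 ± 0.463 CPM (SD, n = 3 each), with a log2 fold change of -0.41 (standard error 0.17, 95% interval -0.76 to -0.063). The edgeR adjusted p of 0.0646 missed the threshold and reached 0.0472 without knockdown sample 2 (log2 fold change -0.50), with adjusted p from 0.0472 to 0.198 over 12 alternatives.

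HGF, the ligand of MET (ENSG00000019991.18, chr7:81699010-81770438, minus strand), had 12, 12 and 13 counts in the control samples and 15, 19 and 21 counts in the knockdown samples. The counts were higher in every knockdown sample but low in all. The log2 fold change of 0.46 had a 95% interval of -0.42 to 1.34 (edgeR adjusted p = 0.449). Per length, HGF was at 0.0419 ± 0.00242 CPM per kb and its receptor MET at 5.01 ± 0.134 CPM per kb in the control samples (SD, n = 3).

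The full order of the 10 genes per length in the control samples was PDGFA, ERBB3, PDGFC, MET, EGFR, ERBB2, PDGFRB, HBEGF, HGF and PDGFRA. The samples of ERBB3 (7.48 to 7.67 CPM per kb) overlapped those of PDGFC (7.02 to 7.58), those of MET (4.88 to 5.15) overlapped those of EGFR (4.61 to 5.16), and those of HGF (0.0391 to 0.0433) overlapped those of PDGFRA (0.0306 to 0.0432). This order depended in part on the length used. With longest transcripts the control means of ERBB3 and PDGFC were 14.1 and 9.58 CPM per kb, and MET (5.26 CPM per kb) came after ERBB2 (9.41) and EGFR (7.77). In the knockdown samples PDGFC (12.6 to 13.3 CPM per kb) lay above ERBB3 (9.11 to 9.50) without overlap when merged exons were used. With longest transcripts the knockdown means of PDGFC and ERBB3 were 17.1 and 17.4 CPM per kb.

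Other genes of the 3 axes were taken from 6 lists with 90 genes, of which 71 passed the filter. Of these 71, 8 rose and 17 fell, so that 35.2% were called (11.3% upward and 23.9% downward, compared with 11.8% and 11.3% of all genes tested). The median log2 fold change of the 71 was -0.039. The lists were chosen with earlier results of these data known, so these shares only describe the genes listed. Among 11 other ErbB genes 1 passed the filter, NRG1, which encodes a ligand of ERBB3. NRG1 reached 50.1 ± 0.560 and 50.6 ± 1.36 CPM (SD, n = 3 each), with a log2 fold change of 0.013 (95% interval -0.11 to 0.13). Per length, NRG1 had 2.35 ± 0.0262 and HBEGF 1.37 ± 0.0363 CPM per kb in the control samples (SD, n = 3), and AREG, EREG and BTC had 0 counts in all 6 samples. Among 9 other genes of the PDGF family and the related KIT-type receptors, 6 were tested and 2 fell, PDGFB and KITLG, the ligand of KIT (log2 fold change -0.78, from 9.79 to 5.67 CPM), while KIT itself had 0 counts throughout.

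In the list of HGF and MET relatives, activators and inhibitors, 7 of 11 genes were tested, 1 rose and 2 fell. PLAU, the urokinase that can cleave the HGF precursor, reached 314.9, 333.4 and 329.8 CPM in the control samples and 127.1, 134.7 and 125.1 CPM in the knockdown samples. It was lower in every knockdown sample and fell by 1.34 on the log2 scale (standard error 0.047, edgeR adjusted p = 3.61e-16). PLAT, the tissue plasminogen activator, fell by 0.58, from 92.0 to 61.4 CPM. PLXNB1, a semaphorin receptor that can associate with MET, rose by 0.52, from 25.4 to 36.4 CPM.

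In the list for shedding and processing of ligands, all 9 genes were tested, 1 rose and 3 fell. FURIN, a protease that matures some PDGF chains and the MET precursor, rose by 0.48, from 89.3 to 124.9 CPM. CD9, a tetraspanin that associates with the HB-EGF precursor, fell by 0.67, and RHBDF1, a cofactor of ADAM17, fell by 0.47. ADAM17, the main sheddase of the HB-EGF precursor, fell by 0.27, from 109.9 to 91.1 CPM. That call was lost with scaling by library size alone (-0.22), without control sample 3 (-0.24) and without knockdown sample 1 (-0.24).

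Among the adaptors and effectors next to the receptors, 23 of 24 genes were tested, 4 rose and 3 fell. PIK3R3, a regulatory subunit of phosphoinositide 3-kinase, rose by 0.49 (64.7 to 91.0 CPM), and the kinase gene SRC rose by 0.35 (61.9 to 79.1 CPM). PIK3CA (0.27) and SOS1 (0.25) also passed, but PIK3CA was at 0.22 without control sample 3, 0.25 without knockdown sample 2 and 0.22 without knockdown sample 3, and SOS1 lost its call in 6 of 12 alternatives, where its log2 fold change was 0.17 to 0.25. The genes that fell were NCK1, an adaptor (-0.48), PTPN11, the phosphatase SHP2 (-0.48), and PIK3CB (-0.32), whose adjusted p by edgeR was 0.0135 but 0.0508 without control sample 1 and 0.0528 without control sample 3.

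Of the genes that attenuate or traffic the receptors, 25 of 26 were tested, 2 rose and 7 fell. PTPN1, the phosphatase PTP1B that acts on receptor kinases, reached 95.8, 89.3 and 91.5 CPM in the control samples and 52.1, 46.7 and 47.9 CPM in the knockdown samples. It was lower in every knockdown sample, with a log2 fold change of -0.92 (standard error 0.057, edgeR adjusted p = 6.00e-12). ERRFI1, the feedback inhibitor MIG6 of ErbB kinases, reached 162.2, 161.6 and 165.4 CPM in the control samples and 94.6, 98.9 and 103.8 CPM in the knockdown samples. The samples did not overlap, and the log2 fold change was -0.72 (standard error 0.049, edgeR adjusted p = 2.90e-11).

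STAM2, an endosomal sorting component, fell by 0.68 (29.4 to 18.3 CPM), and RNF41, a ubiquitin ligase of ERBB3, fell by 0.33 (55.1 to 43.9 CPM). PTPRJ, a receptor phosphatase, fell by 0.84 at a low level (2.52 to 1.40 CPM), and that call was lost without control sample 2 (-0.67, edgeR adjusted p = 0.0800). LRP1, an endocytic receptor that binds PDGFRB, rose by 0.40 (208.0 to 274.5 CPM). EPN1, an endocytic adaptor, rose by 0.26, and that call was lost without control sample 2 (0.23), control sample 3 (0.24) or knockdown sample 1 (0.20).

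**Figure D4:**
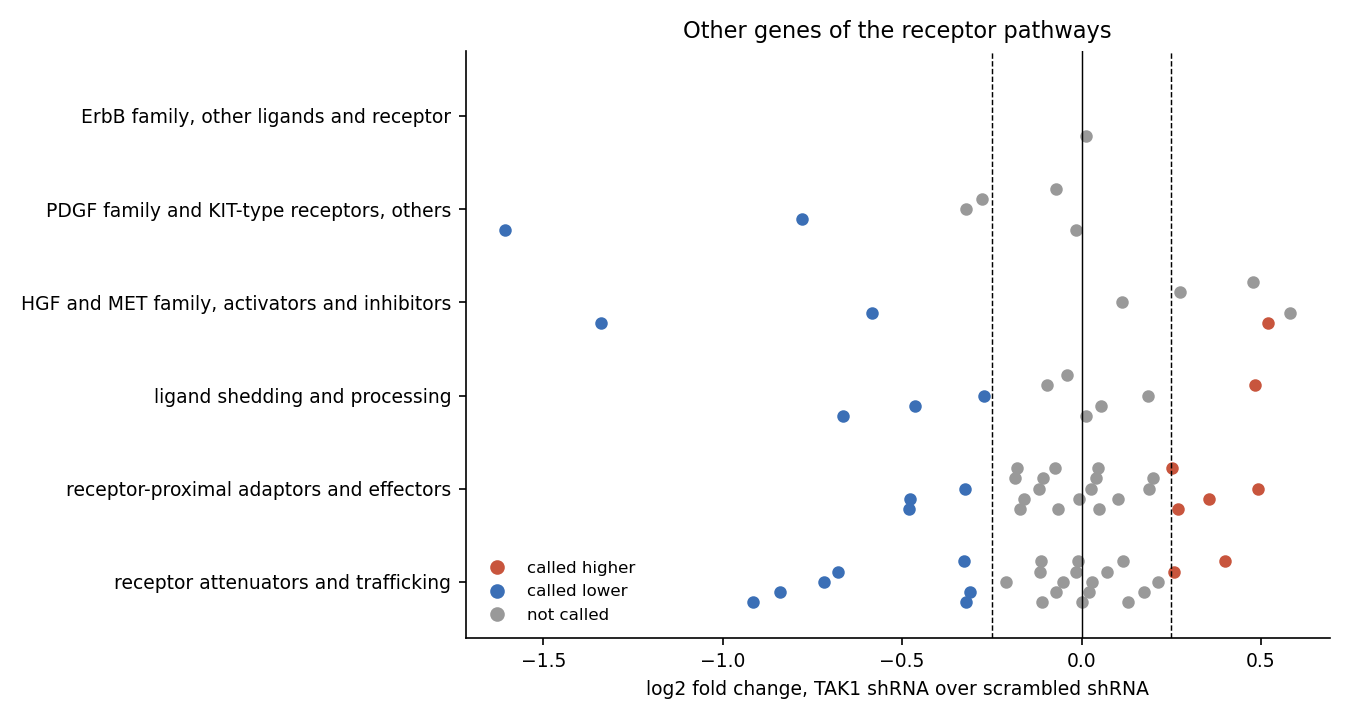
Log2 fold change of TAK1 knockdown over control (x axis) for the 71 tested genes of 6 receptor pathway lists (y axis), with 1 point per gene. Red and blue mark genes called higher (8) and lower (17), gray genes were not called, dashed lines mark the fold threshold of 0.25, and the vertical offset within a list only separates points.

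Markers of other cell types were read beside the PDGF genes. The summed level of 5 fibroblast markers was 6241, 6182 and 6478 CPM in the control samples and 7878, 7496 and 8188 CPM in the knockdown samples. Nearly all of it came from COL3A1, the 1 gene of the 4 tested that was called, which rose by 0.32, whereas THY1 was at 108.5 and 103.7 CPM in the control and knockdown means, DCN at 3.00 and 3.66 CPM and LUM at 4.12 and 4.79 CPM. FAP had 0 counts in the control samples and 4, 1 and 0 counts in the knockdown samples. Among pericyte and smooth muscle markers, with a sum of 111.5 and 101.7 CPM of which CSPG4 held the largest part, 5 of 6 genes were tested and 1 (MCAM) fell by 0.36, while RGS5 (4.84 and 5.84 CPM) and ABCC9 (3.31 and 4.41 CPM) were higher in every knockdown sample and were not called. RGS5 has 2 rows in the count table, and its values and the sum use the first row only, while the second row overlapped between the groups with a lower mean in the knockdown samples. The 4 endothelial markers summed to 0.827 and 0.551 CPM, with CDH5 at 0 counts throughout, and the 4 leukocyte markers to 0.296 and 0.270 CPM. Of 14 muscle lineage markers 12 were tested, 4 rose and 1 fell, MYF5 had 0 counts throughout, and the sum was 3132 and 3061 CPM. The gene that fell was CHRNA1, which held the largest part of the summed CPM, with a log2 fold change of -0.40 (921.2 to 700.3 CPM). Besides MYOD1 and MYOG, the genes that rose were MYMK, with a log2 fold change of 0.98 (6.83 to 13.5 CPM), and CHRNG, with 0.47 (59.9 to 82.8 CPM), and 8 of the 12 were higher in the knockdown mean. Whether the muscle markers or COL3A1 had a part in the differences of the receptor and ligand genes was not tested.

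The genes next to the called members were examined for shared direction. PDGFC lay between CTSO and GLRB, the nearest tested genes at 807 and 104 kb, and each of these also rose, CTSO by 0.93 (2.81 to 5.34 CPM, edgeR adjusted p = 7.68e-05) and GLRB by 0.62 (18.3 to 28.0 CPM, edgeR adjusted p = 2.05e-06). ERBB3 lay between RPS26 and PA2G4, with log2 fold changes of -0.18 and -0.17, neither of which was called. PGAP3 and MIEN1, which overlap ERBB2, had log2 fold changes of -0.035 and -0.14. Over all genes tested 23.1% were called, and called neighbors, in either direction, also lay beside members that were not called.

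The 3 genes most like EGFR over the 6 samples were UBE2H, YLPM1 and AKAP1. Their root mean square differences from the centered log2 profile of EGFR were 0.013, 0.019 and 0.022, and the median over the 15934 genes compared was 0.18. They were chosen for this likeness, so the resemblance of their profiles to that of EGFR is no separate result.

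Because JNK and NF-kB lie downstream of TAK1, the RefSeq promoters (GRCh38.p14) were read for 250 bases before each RefSeq start site. For ERBB2, PDGFRA, PDGFRB, PDGFA, HGF and the second start of EGFR, at least 1 such start lies inside the gene bounds of GENCODE 44, so these windows can cover part of the gene. Entries matched 8 of the 10 genes, with 13 start sites in all, and not ERBB3 or PDGFC. The letters TGANTCA, a relaxed form of the AP-1 site that allows any middle base where the consensus has C or G, were sought on both strands and lay in 3 of the 13 windows, compared with 6.57% of all 35116 promoters. The letters GGAATG, bound by TEAD factors, lay in 2 windows, compared with 11.9% of all, and the NF-kB motif lay in 0, compared with 5.21% of all. The windows before the main start of EGFR and before HBEGF, MET, PDGFRB and PDGFA held none of these motifs. ERBB2, the only called member with an entry, held a match to TGANTCA at 222 bases upstream of its RefSeq start, which lies inside the gene bounds given above. The match itself lies before those bounds, within an annotated exon of PGAP3 on the opposite strand. EGFR held 2 such matches at 232 and 136 bases upstream of a second start inside the gene, and PDGFRA held 1 at 32 bases. The EGFR matches have C or G in the middle, while those of ERBB2 and PDGFRA have T or A and so depart from the consensus. A match describes these letters only. The TGANTCA matches are shown as 29 bases each to let the letters be compared, with the match in capitals, 5′ to 3′ on the strand of the gene.
ERBB2, chr17:39687872-39687878, plus strand: gggagcggaagTGATTCAgagcgccccca
EGFR, second start, chr7:55109607-55109613, plus strand: gctttcccatgTGAGTCAttgctagtcag
EGFR, second start, chr7:55109703-55109709, plus strand: gtataaactttTGACTCAcaggacaaatt
PDGFRA, chr4:54229261-54229267, plus strand: gactataacatTGAATCAattacaaaacg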

How the data were processed

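The authors deposited counts of reads per gene, without normalization, for 6 samples of RD cells. Per the submitters' processing notes, CASAVA and STAR were used with GRCh38. The counting program, annotation release and strand use are not given in the sources used here. Groups followed the sample labels. Low counts were removed with the filterByExpr function of edgeR, and TMM factors (trimmed mean of M-values) scaled the libraries before the quasi-likelihood test of edgeR 4.0.16 (R 4.3.3), with Benjamini-Hochberg adjustment over 15935 genes. Genes were called at an adjusted p under 0.05 together with a log2 fold change of 0.25 or more in either direction. The standard error was taken as |log2 fold change| over the root of F. CPM values use normalized library sizes. At this depth the common biological coefficient of variation was 5.67%, and intervals of counts cover counting error only. Exon lengths and positions came from GENCODE 44. The test was checked on simulated data. Alternatives were DESeq2 1.42.0, DESeq2 size factors, library size alone, 2 filters, 2 fold thresholds, a replicate term, other lengths and leaving out each sample. Named genes were the 10 members, MAP3K7, up to 5 called genes per direction and pathway list, neighbors of called members, the 3 genes most like EGFR and DES, MYOD1 and MYOG. Other markers and uncalled or untested pathway genes were named after their values were seen. The members and lists were chosen with earlier results of these data known. Figures were drawn with matplotlib 3.10.9.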

Additional observations from a re-analysis of the deposited data

How the results depend on the processing

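ERBB2, ERBB3 and PDGFC were called upward in all 12 alternatives of normalization, test, filter, replicate term and left-out sample. EGFR, PDGFRA, PDGFRB, PDGFA and HGF were called in none that tested them (PDGFRA was not tested with at least 10 counts in every sample), while MET and HBEGF crossed a threshold in 4 and 1. Members called numbered 3 to 5 with 1 sample left out (0 to 1 downward), the highest without TAK1 knockdown sample 2. A fold threshold of 0.5 left 1 member (1 upward), 10 pathway genes (1 upward, 9 downward) and 1415 genes in all (735 upward, 680 downward), since it removes smaller changes. Without a fold threshold 2569 genes were upward and 2734 downward. With the replicate number as a replicate block, 1942 genes were upward and 1848 downward, and 3 members were called. Deviations of same-numbered samples correlated at 0.037, 0.036 and 0.016, under the 0.1 asked of a pair, so the samples were not treated as paired. Each knockdown sample correlated best with the control of its own number, while control sample 3 correlated best with knockdown sample 2 (0.019). With 1 sample left out, the difference in EGFR share ran from -3.44 to -2.03 points, and that in PDGFRA share, which was not called, from -0.20 to 0.78. PDGFRA and HGF had the lowest counts among the members, with at most 21 counts per sample.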

Other observations

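Some pathway genes were too low to be tested, and their counts are given without a test. TGFA, which encodes an EGFR ligand, had 0 counts in each control sample and 2, 8 and 5 counts in the knockdown samples. EGF had 9, 16 and 6 counts in the control samples and 1, 4 and 6 counts in the knockdown samples. SPINT2, an inhibitor of HGF-activating proteases, had 0 counts in each control sample and 5, 3 and 1 counts in the knockdown samples.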
